A study of Homo sapiens with 6 samples.

Results

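Metallothioneins were followed in HEK293 cells, a line derived from human embryonic kidney. The rows of the deposited table were taken whose gene symbol in the array's probe annotation was MT1A, MT1B, MT1E, MT1F, MT1G, MT1H, MT1M, MT1X, MT2A or MT3. Of these 10 genes, 9 had a row of their own, which makes 9 of the 18417 genes with a row of a single symbol, and MT1A had none. The 9 genes held 11 of the 33297 rows. MT2A had 3 of them, and 2 of those carried the same values on every array, so 10 distinct rows were described. No row was shared between a listed metallothionein and another gene. Each metallothionein row summarises the probes of a transcribed locus on Affymetrix Gene 1.0 ST arrays. Shares over all rows, given below, include 12083 rows without a gene symbol.

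RNA was measured on 3 arrays labelled treatment and 3 labelled control. The source labels say that treatment cells received a Neo vector and control cells a transient vector. The design text instead describes HEK293 cells transfected with the plasmid pCMV9 and untreated cells, and asks which mediators accompany the anti-HIV effect of an empty vector. The labels therefore do not settle what the control cells received, and they give neither a dose nor a time. All 6 arrays share the cell line, and since the labels do not tell whether replicates were grown as separate cultures, the spread behind the p-values may be technical.

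Metallothioneins are small, cysteine-rich proteins that bind zinc, copper and cadmium in metal-thiolate clusters. They buffer free zinc, protect cells against heavy metals and scavenge oxidants. When zinc rises, the zinc-finger factor MTF1 binds metal response elements in their promoters and switches them on. Glucocorticoids, oxidants and inflammatory cytokines are known to raise some of them too. In people most functional genes of the family lie side by side on chromosome 16, mixed with pseudogenes. The genes are so alike that probes for 1 of them may read others, and the rows below are not independent readouts. Fewer cells that make an RNA and less of it per cell cannot be told apart in such bulk samples.

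Median intensity per array lay between 80.5 and 84.2 in treatment arrays and between 77.2 and 81.1 in control arrays. Treatment replicate 3 was the least like the others: its Pearson's r with them averaged 0.963, where the other 5 arrays had 0.972 to 0.978. Olfactory receptor rows, 381 in number, served as a gauge of signal from genes not in use. Their 95th percentile was 63.4 in treatment and 50.7 in control arrays. Of 12 rows of HEK293 markers, 1 lay below that gauge in both groups. It was the kidney factor PAX8, at a mean of 24.2 in treatment and 27.2 in control arrays. The kidney factors EYA1, LHX1 and PAX2 lay above the gauge in both groups, and the filaments VIM, KRT8, KRT18, NEFL and NEFM far above it. Below the gauge in both groups were 7 of 9 leukocyte rows, 4 of 7 hepatocyte rows and 3 of 7 fibroblast rows. The lysosomal CD68 was the only row of those 3 lists to pass the test (1.37 ± 0.25, SE; limma, adjusted p = 0.0242). In the HEK293 list PAX2 had the lowest p (0.76 ± 0.20, SE; limma, adjusted p = 0.328), and in the fibroblast list the collagens COL1A1 (-0.46 ± 0.20) and COL1A2 (0.47 ± 0.21) did. All 7 hepatocyte rows were higher on average in treatment arrays, with a median log2 difference of 0.31, and 0 passed limma. The apolipoprotein APOA1 had the lowest p among them, at 0.58 ± 0.27 and 0.56 ± 0.26 in its 2 rows (SE), and its groups overlapped. The part of other cell types in the results was not tested.

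All 10 metallothionein rows were higher on average in treatment than in control arrays, by 0.05 to 0.69 on the log2(intensity + 16) scale, with a median of 0.48. Over all rows the median was 0.01, with 51.8% of rows higher. The olfactory receptor rows also leaned upward, with a median of 0.12 and 67.5% of rows higher, which bears on the dim MT1E and MT3. Of the 10 rows, 0 passed limma at an adjusted p under 0.05, where 0.372% of all rows passed in either direction. At an unadjusted p under 0.05, 6 of the 10 were higher in treatment, against a background of 5.01% of all rows higher at that level. In 7 of the 10 rows every treatment array lay above every control array, which held for 7.47% of all rows. The median ran from 0.39 to 0.57 when any 1 array was left out. The number at an unadjusted p under 0.05 was 1 without treatment replicate 2, where 3.85% of all rows were higher at that level. It was 3 without control replicate 1 (3.49% of all rows), without control replicate 2 (3.95%), with an offset of 1 (5.14%), with no offset (4.64%) and with each array centred on its median (3.41%).

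**Figure D1:**
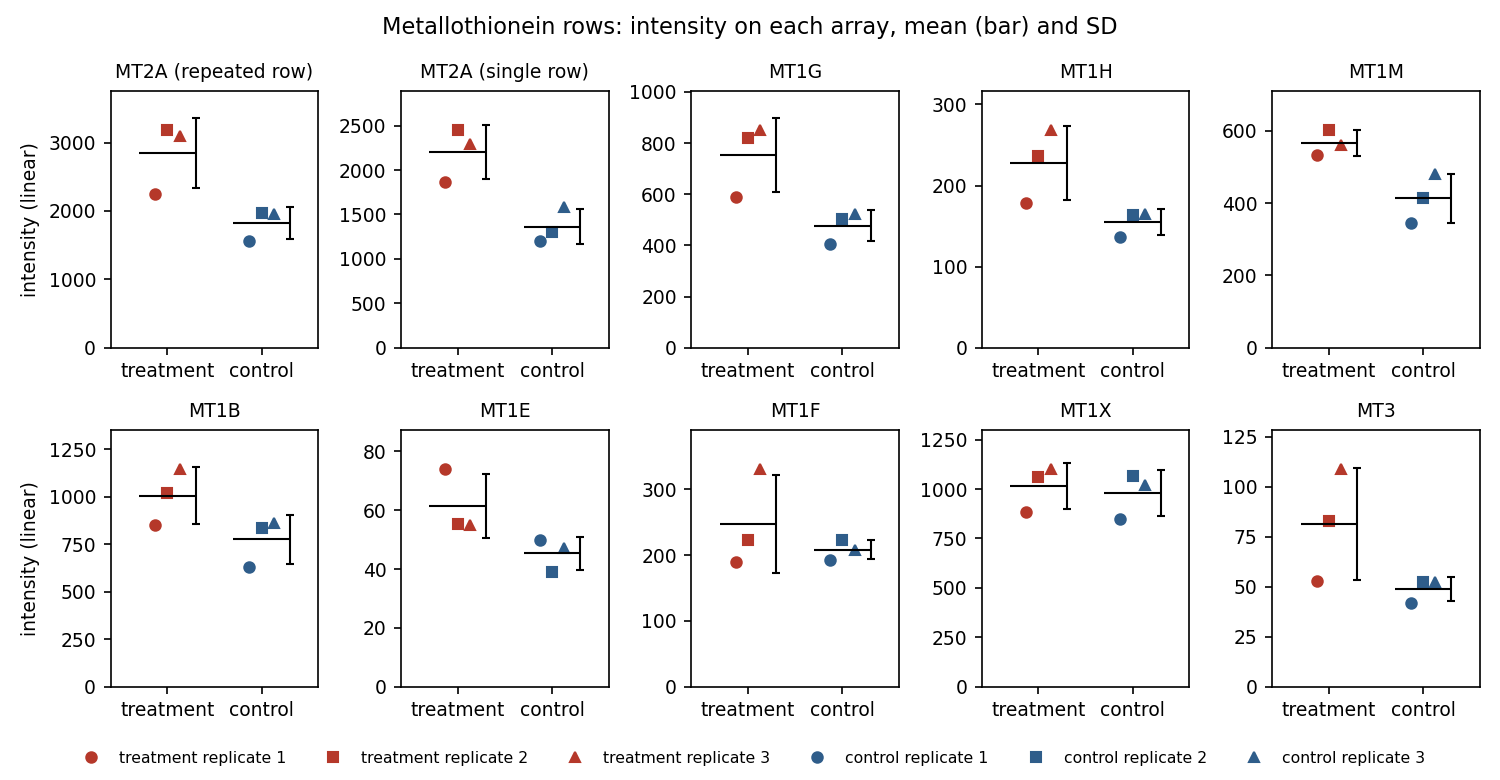
Linear intensity (y axes, from 0) of the 10 distinct metallothionein rows on the 3 treatment arrays (red) and the 3 control arrays (blue), with the mean of each group as a line and its SD as an error bar (n = 3). In 7 panels all treatment points lie above all control points; in those of MT1B, MT1F and MT1X the groups overlap.

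MT2A, which encodes the main metallothionein of most human tissues, had the largest difference on the log2(intensity + 16) scale. Its single row read 1869.6, 2455 and 2292 in treatment replicates 1, 2 and 3, against 1202, 1303 and 1585 in control replicates 1, 2 and 3. All treatment arrays were above all control arrays, with treatment replicate 1 the lowest of its group. The means were 2205 ± 302 in treatment and 1363 ± 198 in control arrays (SD, n = 3 each), a ratio of 1.62. On the log2 scale the difference was 0.69 ± 0.21 (SE), with a 95% interval from 0.24 to 1.14, and it did not pass (limma, adjusted p = 0.498).

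The repeated MT2A row, present with the same values under 2 identifiers, was also higher in treatment arrays. The annotation gives it the symbol MT2A, but the locus of its probes was not examined. The pseudogene MT2P1, on chromosome 4, had no row of its own symbol. The repeated row may therefore not be a second readout of the same gene. It read 2252, 3187 and 3094 in treatment arrays, against 1559, 1967 and 1954 in control arrays. The groups again did not overlap, and replicate 1 was the lowest array of each. Its means of 2844 ± 515 in treatment and 1826.5 ± 232 in control arrays (SD, n = 3 each) differed by 0.63 ± 0.22 on the log2 scale (SE; limma, adjusted p = 0.592). Both MT2A rows passed when the variance prior was allowed to depend on intensity (limma with a trend, adjusted p = 0.0143 for the single row and 0.0286 for the repeated one). That setting left the differences as they were and set their SE at 0.15 for the single row and 0.14 for the repeated row. It called 159 rows of the whole table, 144 of them higher in treatment, and none of the other 8 metallothionein rows.

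The bases before the start of MT2A are shown because they hold the best known switch of the family, the metal response element. The RefSeq promoter table (GRCh38.p14) held 4 of the 10 listed genes, and for each the 250 bases before the start are given 5′ to 3′ on the plus strand of chromosome 16. Capitals mark the core of the metal response element, searched as TGCACNC and TGCGCNC on both strands. MT1X is set beside the others because it had the smallest difference of the 10 rows.
MT2A: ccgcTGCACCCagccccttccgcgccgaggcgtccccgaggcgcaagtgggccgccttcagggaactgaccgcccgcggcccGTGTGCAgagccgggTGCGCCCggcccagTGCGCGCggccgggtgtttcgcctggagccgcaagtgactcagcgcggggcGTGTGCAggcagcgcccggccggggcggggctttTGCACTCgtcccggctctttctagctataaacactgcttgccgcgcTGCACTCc
MT1X: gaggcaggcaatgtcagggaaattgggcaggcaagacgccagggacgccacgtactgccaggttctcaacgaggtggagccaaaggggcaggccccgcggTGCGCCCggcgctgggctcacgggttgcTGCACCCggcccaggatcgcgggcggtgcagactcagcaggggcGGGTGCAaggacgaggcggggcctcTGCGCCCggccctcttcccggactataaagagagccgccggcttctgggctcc
MT1H: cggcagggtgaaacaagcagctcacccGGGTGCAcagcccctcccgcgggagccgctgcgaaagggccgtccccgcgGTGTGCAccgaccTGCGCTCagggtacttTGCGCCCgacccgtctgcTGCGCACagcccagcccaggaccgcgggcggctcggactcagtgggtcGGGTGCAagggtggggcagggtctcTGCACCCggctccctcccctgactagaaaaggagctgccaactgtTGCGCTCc
MT1B: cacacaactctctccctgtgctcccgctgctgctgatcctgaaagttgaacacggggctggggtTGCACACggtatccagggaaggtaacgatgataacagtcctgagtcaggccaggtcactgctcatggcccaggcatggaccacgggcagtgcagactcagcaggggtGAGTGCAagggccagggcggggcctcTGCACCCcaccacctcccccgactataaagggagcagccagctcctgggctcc
These windows are chr16:56608334-56608583 for MT2A, chr16:56682220-56682469 for MT1X, chr16:56669564-56669813 for MT1H and chr16:56651636-56651885 for MT1B.

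The core matched 7 times in the MT2A window, 4 times in that of MT1X, 8 times in that of MT1H and 3 times in that of MT1B, and no matches overlapped. Of 35116 promoter windows of this length, 24.8% held at least 1 match. At least 7 matches were found in 0.0313% of them, at least 8 in 0.0171%, at least 4 in 0.37% and at least 3 in 1.58%. The match nearest to the start began 8 bases before it in MT2A and MT1H and 53 bases before it in MT1X and MT1B. The core of the interferon-stimulated response element, searched on both strands, had no match in any of the 4 windows, and 3.02% of all windows held it. The antioxidant response element core, searched as TGACNNNGC on both strands, matched once each in MT2A, MT1X and MT1B, as in 10.9% of windows. Matches are letters only, and binding was not measured.

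Among the MT1 genes, which encode the other widely expressed isoforms, MT1G came closest to MT2A. It read 589, 820.2 and 852 in treatment arrays, against 407, 503 and 521 in control arrays. Each treatment array was above each control array. The means were 754 ± 143 in treatment and 477 ± 61.2 in control arrays (SD, n = 3 each), a ratio of 1.58 and a log2 difference of 0.63 ± 0.22 (SE; limma, adjusted p = 0.585). With each array left out in turn and under the other alternatives that difference stayed between 0.53 and 0.80.

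MT1H read 178, 236 and 269 in treatment arrays, against 136, 163 and 164 in control arrays. The groups did not overlap, although treatment replicate 1 came near the 2 higher controls. The log2 difference was 0.50 ± 0.21 (SE; limma, adjusted p = 0.68). MT1M read 533, 603 and 561 in treatment arrays, against 344, 414 and 480.1 in control arrays. These groups did not overlap either, and this was the row of the MT1 genes with the smallest spread among treatment arrays relative to its mean, 566 ± 35.4 (SD, n = 3). Its control mean was 413 ± 67.9 and its log2 difference 0.45 ± 0.20 (SE; limma, adjusted p = 0.68).

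MT1E, another metal-binding MT1 isoform, read 74.1, 55.4 and 54.9 in treatment arrays, against 49.7, 39.1 and 47.2 in control arrays. The groups did not overlap, but treatment replicate 1 was here the highest array, unlike in the 9 other rows, where it was the lowest of its group. Both means, 61.5 ± 11.0 in treatment and 45.3 ± 5.58 in control arrays (SD, n = 3 each), lay below the 95th percentile of olfactory receptor rows in the same group, so this signal cannot be told from that of genes not in use. The log2 difference was 0.33 ± 0.20 (SE; limma, adjusted p = 0.728).

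The groups overlapped for the 3 remaining MT1 genes. MT1B read 848, 1017 and 1147 in treatment arrays, against 628, 835 and 860.5 in control arrays, a log2 difference of 0.37 ± 0.21 (SE; limma, adjusted p = 0.72). Only treatment replicate 1 fell within the range of the controls. MT1F read 189, 223 and 332 in treatment arrays, against 193, 222 and 208 in control arrays. Treatment replicate 1 lay below every control, replicate 2 just above the highest of them and replicate 3 well above. Without replicate 3 the log2 difference of 0.20 ± 0.23 (SE; limma, adjusted p = 0.862) came to -0.01.

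MT1X is expressed in many tissues, and its difference was the smallest of the family. It read 885, 1059.6 and 1103 in treatment arrays, against 846, 1066 and 1021 in control arrays. The means, 1016 ± 115 in treatment and 978 ± 116 in control arrays (SD, n = 3 each), lay closer together than the arrays of either group. The log2 difference was 0.05 with a 95% interval from -0.38 to 0.49 (limma, adjusted p = 0.971), so a difference of the size seen for MT1M lies within that interval. Its sign turned with each array centred on its median, without treatment replicate 3 and without control replicate 1.

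Within an array, the log2 signal of the repeated MT2A row minus that of MT1X was 1.33, 1.57 and 1.48 in treatment arrays, against 0.87, 0.87 and 0.93 in control arrays. With the single MT2A row it was 1.07, 1.20 and 1.04 in treatment arrays, against 0.50, 0.29 and 0.63 in control arrays. Neither set of values overlapped between the groups. The pair was chosen after its values were seen, as the genes with the largest and the smallest log2 difference, so the separation follows from that choice and is given as a description only.

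MT3, the growth inhibitory factor known mainly from brain, read 53.0, 82.7 and 109 in treatment arrays, against 42.1, 52.4 and 52.1 in control arrays. The lowest treatment array was only just above the highest control, and the spread was wider among treatment arrays. The means were 81.5 ± 28.0 in treatment and 48.9 ± 5.89 in control arrays (SD, n = 3 each), and the control mean lay below the 95th percentile of olfactory receptor rows. The ratio of means, 1.67, was the largest of the 10 rows on the linear scale. The log2 difference of 0.55 ± 0.24 (SE; limma, adjusted p = 0.68) was 0.35 when treatment replicate 3, the least typical array, was left out, and 0.78 without treatment replicate 1.

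**Figure D2:**
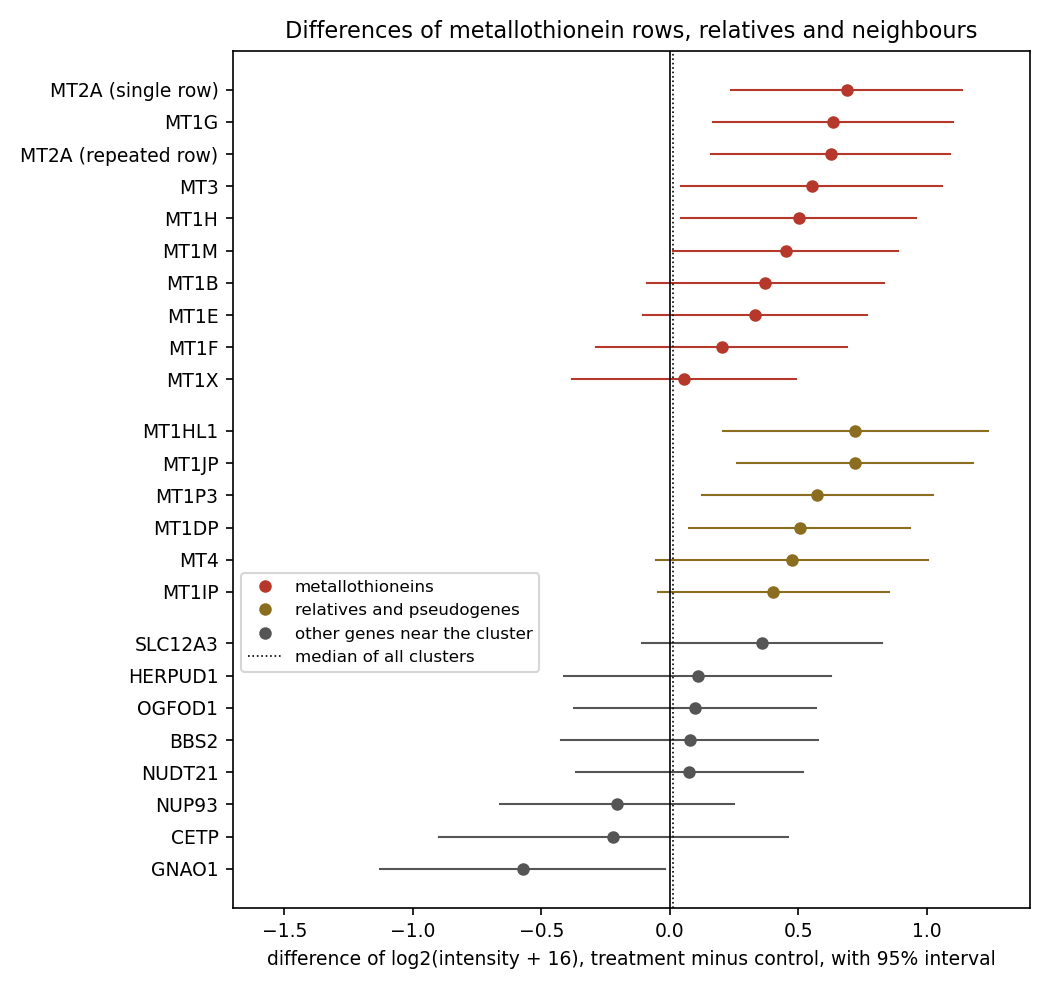
Difference of log2(intensity + 16), treatment minus control (x axis, with 95% intervals from limma), for the 10 metallothionein rows (red), 6 relatives and pseudogenes (brown) and 8 other genes near the cluster (grey). All red and brown points are above 0, from 0.05 for MT1X to 0.72 for MT1HL1, while the grey points lie on both sides.

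The arrays of a group differed in a shared way across the family. Relative to the control mean of each row, the median over the 10 rows was 0.25, 0.55 and 0.69 in treatment replicates 1, 2 and 3, against -0.18, 0.08 and 0.09 in control replicates 1, 2 and 3. Over all rows of the table the same medians lay between -0.05 and 0.06 in treatment arrays and between -0.04 and 0.04 in control arrays. Treatment replicate 1 was the lowest treatment array in 9 of the 10 rows, and control replicate 1 the lowest control array in 9 of the 10. How often this held over all rows was not counted, and the 10 rows are not independent readouts. The 9 interferon-stimulated genes set beside the family as context (IFIT1, IFIT2, IFIT3, ISG15, MX1, OAS1, OAS2, RSAD2 and IRF1) all rose, and had medians of 3.32, 3.85 and 3.68 in treatment arrays, against -0.11, 0.02 and 0.18 in control arrays. Replicate 1 was thus the lowest array of its group for that list as well. The 2 gene groups share their arrays, and no relation between them was tested.

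**Figure D3:**
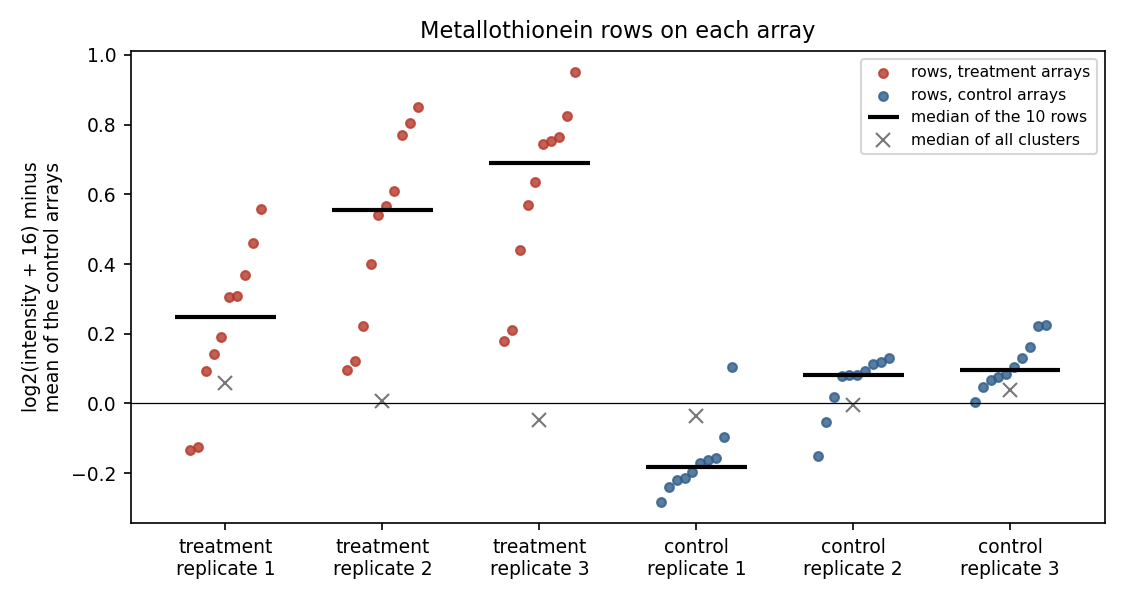
Each of the 10 metallothionein rows on each array, as log2(intensity + 16) minus the row's mean over the control arrays (y axis), with the median of the rows as a black line and the median of all rows of the table as a cross. The medians of the family are 0.25, 0.55 and 0.69 in treatment arrays and -0.18, 0.08 and 0.09 in control arrays.

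Relatives outside the 10 listed genes showed differences of the same size. Of 11 listed relatives and pseudogenes, 6 had a row of their own. All 6 were higher on average in treatment arrays (median log2 difference 0.54), as were 51.8% of all rows. In 5 every treatment array lay above every control array, which held for 7.47% of all rows. None of the 6 passed limma over all rows, where 0.372% passed in either direction. At an unadjusted p under 0.05, 4 were higher in treatment, against 5.01% of all rows. MT1JP, a transcribed pseudogene that lies between MT1M and MT1A in the RefSeq gene order, read 195, 246 and 222 in treatment arrays, against 98.8, 139 and 149 in control arrays. Its log2 difference was 0.72 ± 0.21 (SE; limma, adjusted p = 0.466), with no overlap.

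MT1HL1, a gene on chromosome 1 that resembles MT1H, read 186, 305 and 279 in treatment arrays, against 112, 175 and 159 in control arrays, a log2 difference of 0.72 ± 0.24 (SE; limma, adjusted p = 0.563). MT1P3, a pseudogene on chromosome 20, differed by 0.57 ± 0.21 and the chromosome 16 pseudogenes MT1DP and MT1IP by 0.50 ± 0.20 and 0.40 ± 0.21 (SE). Copies on 3 chromosomes were thus higher on average in treatment arrays, and their probes may read RNA of the coding genes. MT4, an isoform of stratified epithelia, read 98.4, 93.7 and 62.9 in treatment arrays, against 46.8, 43.1 and 83.3 in control arrays, and those groups overlapped. The row that carries the symbol MT1L carries a second, unrelated gene and is not named here.

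Other genes near the cluster on chromosome 16 had differences in both directions. Of 8 measured, 5 were higher and 3 lower on average in treatment arrays, with a median of 0.08. The groups stood apart in 0 of them, while every treatment array lay above every control array in 7.47% of all rows. None passed limma, where 0.372% of all rows passed in either direction. For 8 rows, counts of 0 lie near those shares. An unadjusted p under 0.05 was found for 1 of them, and for 2430 of the 33297 rows of the table in either direction. The gene was the G protein subunit GNAO1, with a log2 difference of -0.57 ± 0.26 (SE; limma, adjusted p = 0.68). Of genes on either side, BBS2, a gene for cilia, gave 0.08 ± 0.23 and NUP93, of the nuclear pore, -0.21 ± 0.21 (SE). OGFOD1, HERPUD1 and NUDT21 gave 0.10, 0.11 and 0.08, SLC12A3 gave 0.36 and CETP -0.22.

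The zinc exporter SLC30A1 (ZnT1) is another classical target of MTF1, and its row was higher in all treatment arrays. It read 722, 691 and 562 in treatment arrays, against 497, 427 and 495 in control arrays. Treatment replicate 3 was the lowest of its group here, as it was for MT1E alone among the metallothionein rows. The log2 difference was 0.46 ± 0.20 (SE) and did not pass over all rows (limma, adjusted p = 0.68). Of the 11 genes in the list of MTF1 and zinc exporters, 0 passed limma, where 0.372% of all rows passed in either direction. The median was -0.02, with 4 genes higher and 7 lower on average in treatment arrays. MTF1 itself was among the lower ones, at -0.18 ± 0.27 (SE), with overlapping groups. At an unadjusted p under 0.05, 1 was higher in treatment, against 5.01% of all rows. SLC30A4, another exporter, gave 0.32 ± 0.20 (SE), also without overlap. Every treatment array lay above every control array in 7.47% of all rows.

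Zinc importers of the SLC39A family had a median log2 difference of -0.10 over 14 genes, with 3 higher and 11 lower on average in treatment arrays. None passed limma, where 0.372% of all rows passed in either direction. An unadjusted p under 0.05 was found for 1 of them, and for 2430 of all 33297 rows in either direction. The gene was SLC39A3, which brings zinc across the plasma membrane. It read 89.6, 103 and 107 in treatment arrays, against 128, 174 and 154 in control arrays, without overlap, a log2 difference of -0.53 ± 0.20 (SE; limma, adjusted p = 0.65). SLC39A4, the intestinal importer, gave -0.32 ± 0.23 (SE) with overlapping groups.

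Copper and iron genes gave medians of -0.13 over 10 genes and -0.15 over 7 genes. Each list had 0 genes past limma's threshold, which 0.372% of all rows passed in either direction, and 1 at an unadjusted p under 0.05. That unadjusted level was reached by 2430 of the 33297 rows of the table, in either direction. ATOX1, the chaperone that hands copper to the export pumps, read 268, 254 and 297 in treatment arrays, against 372, 379 and 415 in control arrays. These groups did not overlap, and the log2 difference was -0.49 ± 0.19 (SE; limma, adjusted p = 0.663). ATP7B, such a pump, gave -0.38 ± 0.21. ACO1, the iron-sensing regulator IRP1, read 962, 635 and 575 in treatment arrays, against 1061, 1068 and 1091 in control arrays, a log2 difference of -0.59 ± 0.22 (SE; limma, adjusted p = 0.641). The transferrin receptor TFRC gave -0.30 ± 0.19 (SE), also with no overlap.

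**Figure D4:**
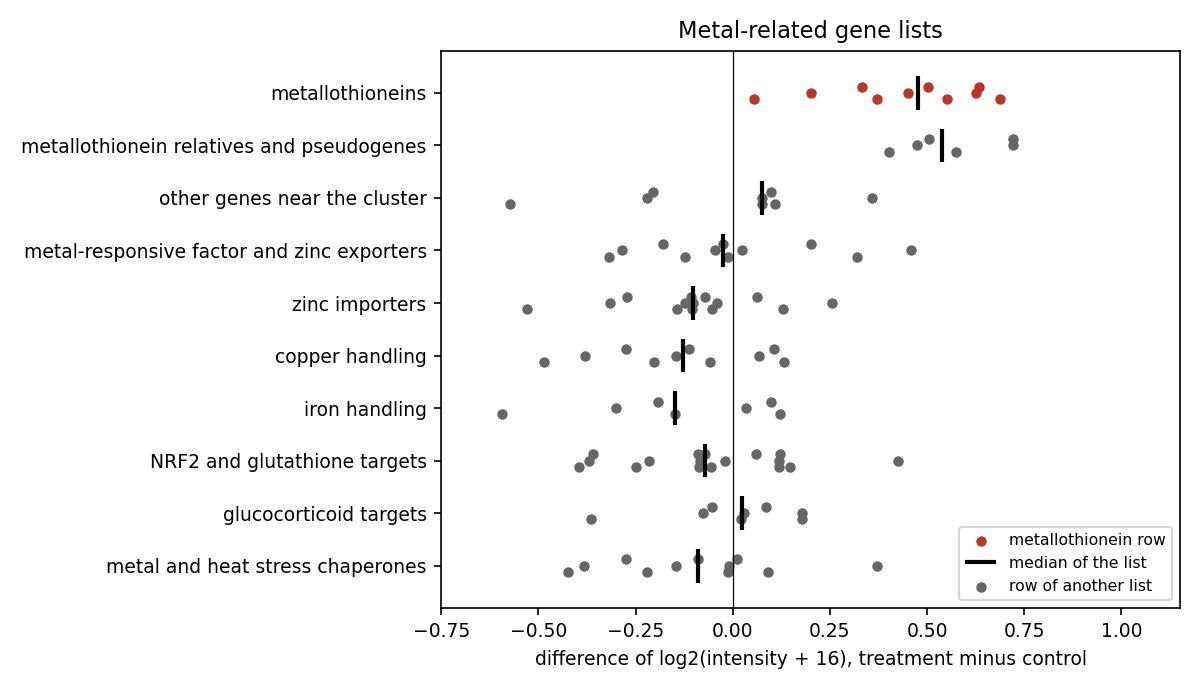
Difference of log2(intensity + 16), treatment minus control (x axis), of each row in the metallothionein list (red) and in 9 other lists (grey), with the median of each list as a black bar. The metallothionein and relatives lists have medians of 0.48 and 0.54, and the other lists have medians between -0.15 and 0.08.

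Lists of oxidant, glucocorticoid and metal or heat stress genes held 0 genes past limma's threshold, which 0.372% of all rows passed in either direction. At an unadjusted p under 0.05 they held 0 as well. Over the whole table, 2430 of 33297 rows reached that unadjusted level. These lists hold mainly genes that answer such signals, and what acts on the metallothionein genes was not tested. NRF2 and glutathione genes, which answer oxidants, had a median of -0.07 over 17 rows. Their lowest p belonged to the cystine carrier SLC7A11 (0.43 ± 0.21, SE) and the quinone reductase NQO1 (-0.40 ± 0.21). Glucocorticoid targets had a median of 0.02 over 8 genes, with the kinase SGK1 at -0.36 ± 0.20 and the repressor ZBTB16 at 0.18 ± 0.22. Chaperones of metal and heat stress had a median of -0.09 over 11 genes, with the heat shock factor HSF1 at -0.38 ± 0.20 and the co-chaperone DNAJA1 at 0.37 ± 0.20, all log2 differences with SE.

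Likeness to MT2A was measured as Pearson's r over the 6 arrays on the log2 scale. The repeated row, the one with the highest mean, served as the pattern, although its locus was not examined. Within the family r was 0.996 for MT1G, 0.976 for MT1H, 0.962 for the single MT2A row, 0.935 for MT1B, 0.931 for MT3 and 0.921 for MT1M. It was 0.658 for MT1X, 0.655 for MT1F and 0.353 for MT1E. Among 13470 other genes with a mean intensity of at least 50, the 5 most alike were TAPBP (0.996), which helps load peptides on class I molecules, MT1HL1 (0.991), the calcium channel RYR3 (0.987), the HLA-region transcript HCP5 (0.986) and the pseudogene MT1DP (0.983). A gene with several rows was ranked by its row most like the pattern, and its other rows were not compared. All 5 genes named had higher means in treatment arrays, by 0.50 to 0.76 on the log2 scale, and none passed limma. These arrays fall into 2 groups and the points share their labelling and depth of signal, so r describes likeness in these 6 arrays alone.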

How the data were processed

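RNA of HEK293 cells was hybridised to 6 arrays. Per the labels, RNA was extracted with an RNeasy kit and biotin-labelled, and the submitters' processing notes name Partek. The deposited values are linear intensities, 1 per row and array, as their range shows. How the authors corrected background, normalized and summarized probes is not given in the sources used here, nor is a genome build. Columns were matched to samples by accession, and groups follow the titles.

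An offset of 16 was added before log2, which understates differences of dim rows. All 33297 rows were fitted with limma 3.58.1 (lmFit and eBayes, R 4.3.3), by group with no block, in two-sided tests whose p-values were adjusted by Benjamini and Hochberg's method over all rows, at a threshold of 0.05. The platform annotation gave 1 symbol to 19460 rows, several to 1754 and none to 12083; 696 rows repeat an earlier row, and lists count distinct rows. The fit was tested on simulated data, where it missed most of the smaller changes. A row that was not called may therefore still differ. The number of arrays limits precision.

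The members and lists were chosen with earlier results of these data known. Named are all members, their relatives and neighbours with a row, the 2 genes of each other list with the lowest p and any called, and the 5 genes most like MT2A. Marker lists are given mostly as counts, and housekeeping genes were measured as a list without being used. Motifs were searched in RefSeq promoters (GRCh38.p14). The alternatives were 2 other offsets or none, 2 normalizations, a replicate block, 2 filters on dim rows, 2 variance priors, 1 row per gene, 2 thresholds and leaving out each array.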

Additional observations from a re-analysis of the deposited data

How the results depend on the processing

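The median log2 difference of the metallothionein rows moved by less than the spread between replicates under all 19 alternatives, from 0.39 without treatment replicate 3 to 0.57 without treatment replicate 1. That spread was the SD of the per-array medians within groups. Leaving out 1 of 3 arrays shifts a group's mean by less than its SD, so those alternatives could hardly exceed it. The replicate block, the 2 variance priors and the 2 thresholds leave each log2 difference as it is, so they could not move this median. The 2 filters on dim rows could move it only by dropping metallothionein rows. The number of metallothionein rows called was 0 under every alternative but an intensity trend (2, both MT2A) and an unadjusted p under 0.05 (6), and it was 0 (lowest) and 0 (highest) when any 1 array was left out. Over the whole table, 124 rows were called, with 40 under a plain log2, 58 with an offset of 1, 2430 at an unadjusted p under 0.05, and 69 (without control replicate 1) to 129 (without treatment replicate 1) when 1 array was left out, among them 82 without treatment replicate 2. The sign of MT1X turned with median centring (-0.00114), and its values with 1 array left out ran from -0.0441 (without control replicate 1) to 0.15, with -0.00658 without treatment replicate 3. Those of MT1F ran from -0.0147 (without treatment replicate 3) to 0.37. The cause was not tested.

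The labels do not say whether replicate numbers pair the arrays. Deviations from the group means of same-numbered arrays correlated at -0.166, 0.0839 and -0.356 for numbers 1, 2 and 3. Those of differently numbered arrays ran from -0.187 (treatment 1 with control 2) to 0.363 (treatment 1 with control 3). Deviations within a group of 3 sum to 0, so these values cannot decide the pairing. With the replicate block, 105 rows of the table and 0 metallothionein rows were called, and 4 of the 10 had an unadjusted p under 0.05, where 3.5% of all rows were higher at that level. Intensities near those of olfactory receptor rows limit what MT1E and MT3 can show.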
